A study of Mus musculus with 49 samples.

Results

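The cells described here are haploid mouse embryonic stem (ES) cells profiled one by one with Hi-C, in cultures grown with serum and sorted under the name G1/S (the condition Serum_G1/S) and in cultures grown in 2i medium under a condition that names no sort (2i_all). They were chosen by the condition and the quality flag that the authors gave each cell, and by the authors' phase groups G1, early-S and late-S/G2. Of the 4098 passing cells of the series, 952 belong here, 569 of them from serum and 383 from 2i. In all phases together, 581 passing serum cells came from 6 libraries, 5 of which held at least 10 passing cells, and 395 passing 2i cells came from 8 libraries, 6 of which held at least 10. The 271 passing haploid cells of the condition 2i_G1 were left out.

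Hi-C ligates pieces of DNA that lie close together in a fixed nucleus, so that each sequenced junction, called a contact, reports a neighbouring pair of loci. Chromosomes fold into domains whose borders insulate neighbours from each other, and active (A) and inactive (B) chromatin separate into compartments that prefer contacts with their own kind. This folding is rebuilt after mitosis: long contacts typical of the condensed chromosome give way to shorter ones, and compartments gain contrast through interphase. Early-replicating chromatin, which is largely active, gains copies before late-replicating chromatin, so that read coverage over early against late domains reports progress through S phase. The 2i medium blocks differentiation signals with a pair of kinase inhibitors and holds ES cells in a more uniform naive state, whereas serum cultures are more mixed.

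All cells were of the haploid line H129-1, a single line. The 2i cells were grown without feeder cells. The labels describe serum cultures as kept on feeder cells, which were then removed with magnetic beads, and the remaining cells as fixed, stained for the pluripotency factor Oct-3/4 and collected by flow cytometry where positive. Staining for Geminin, which accumulates after G1, and for DNA with Hoechst is described for sorts, but the limits of the G1/S sort are not given. Medium, feeders, antibody staining and sort therefore cannot be told apart in any difference between the conditions. The tables hold no expression values, so the ES identity of the cells could not be checked against markers, and haploid DNA content is taken from the label.

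Each library was a separate sequencing sample, and it is used as the replicate. Nothing in the labels states that libraries came from separate cultures, so p-values measure the spread between libraries, which may be technical. A cell is identified by its lane and a pair of index barcodes: no lane among the 20 was shared by libraries, 221 of the 229 index pairs were used in more than 1 library, and 0 passing cells had values identical to those of another cell. Depth differed between the conditions before any other feature was considered. The median serum cell had 156427 contacts (25th to 75th percentile 85965 to 202698) and the median 2i cell 54916 (35895 to 78148). Library medians ran from 128268 to 253920 in serum and from 25556 in haploid 6 to 88902 in haploid 2 in 2i, without overlap. Of listed cells, 57.1 to 80.2% passed the authors' quality flag in serum libraries, 85.7 to 100% in haploid 1 to 5 and 47.4 to 55.4% in haploid 6 to 8, so the 2i libraries were themselves of more than 1 kind.

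The conditions differed in which phases their cells occupied. In serum libraries 24.4% ± 3.31 (SD, n = 6) of passing cells were G1, against 7.84% ± 7.70 (n = 8) in 2i. Early-S cells made up 56.7% ± 9.33 of serum libraries and 24.9% ± 11.4 of 2i libraries. Late-S/G2 cells made up 17.5% ± 9.97 in serum and 64.3% ± 18.3 in 2i. Early-S shares ran from 50.0 to 75% in serum and from 0 to 33.3% in 2i, and late-S/G2 shares from 0 to 30.0% and from 47.4 to 100%, so neither overlapped, whereas the G1 shares did, since 21.1% of haploid 2 was G1. All 3 shares differed (exact two-sided permutation of library labels, adjusted p = 0.00222, 0.001665 and 0.001665 over 5 phases). With the 11 libraries of at least 10 passing cells alone, the shares were 24.3 against 10.5% for G1, 53.0 against 30.4% for early-S and 21.1 against 55.2% for late-S/G2 (exact adjusted p = 0.0144, 0.0108 and 0.0108). The name of the serum condition is that of a cell cycle sort, which can set these shares, and the comparisons below were therefore made within a phase.

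**Figure D1:**
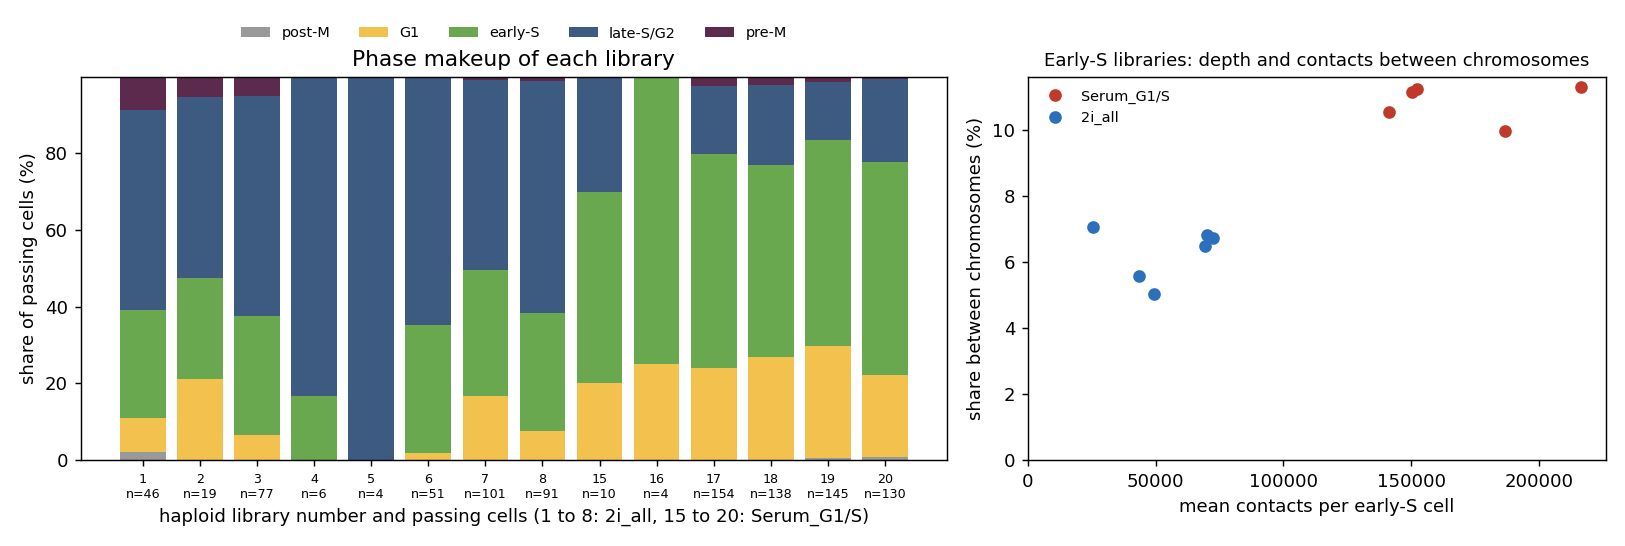
The left panel plots the share of passing cells (%) in each of the authors' phases for every library, haploid 1 to 8 from 2i_all and haploid 15 to 20 from Serum_G1/S; early-S bars reach at most 33.3% in 2i and at least 50.0% in serum. The right panel plots, for early-S, the mean contacts per cell of each library against its share of contacts between chromosomes (%): the 5 serum libraries lie above the 6 2i libraries on both axes.

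Within a phase, a library with at least 5 cells of that phase contributed the mean over its cells. This left haploid 17 to 20 against haploid 3, 7 and 8 in G1 (144 and 29 cells), haploid 15 and 17 to 20 against haploid 1, 2, 3, 6, 7 and 8 in early-S (310 and 120 cells), and haploid 17 to 20 against haploid 1, 2, 3, 4, 6, 7 and 8 in late-S/G2 (106 and 220 cells). Differences are serum minus 2i, and each was tested by an exact two-sided permutation of the library labels, with Benjamini-Hochberg adjustment over 45 tests (15 features in 3 phases). In early-S 5 of the 15 features passed an adjusted p of 0.05 (33.3%), and in late-S/G2 5 of 15 passed (33.3%), which made 10 calls in 45 tests (22.2%). In G1 0 of 15 passed (0%), and 0 had an unadjusted p under 0.05, because 4 against 3 libraries cannot give a p below 0.0571. The serum and 2i libraries did not overlap for 6 of the 15 features in G1 (40%). When any 1 of the large serum libraries haploid 17, 18, 19 or 20 was left out, the count of calls fell to 0 in both early-S and late-S/G2, with adjusted p values of 0.0682 to 0.075 and every called difference keeping its direction. Averaged over the 3 phases, 7 of 15 features passed (46.7%). These counts include features that are not independent of the phase groups. The short-range and mitotic-band shares were among the late-S/G2 calls, and the short-range share was among the averaged calls.

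**Figure D2:**
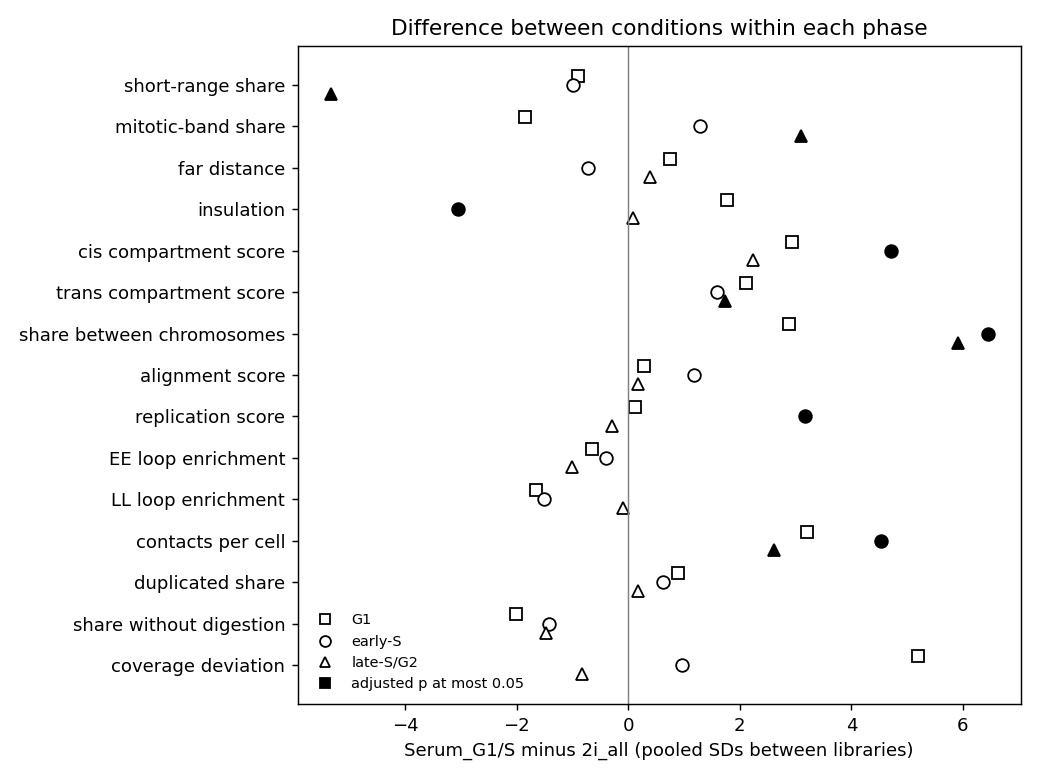
The plot gives, for each feature, the serum minus 2i difference within G1 (squares), early-S (circles) and late-S/G2 (triangles), divided by the pooled SD between libraries, with filled symbols for an adjusted p of at most 0.05. The share between chromosomes has the largest early-S difference (6.44 pooled SDs), and insulation and the replication score differ in early-S and lie near 0 in late-S/G2.

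Contacts between different chromosomes were a larger share of all contacts in serum cells in each of the 3 phases. This share reports how far territories intermingle, and it also takes up random ligation. In early-S it was 9.97, 11.1, 11.2, 10.5 and 11.3% in haploid 15, 17, 18, 19 and 20, and in the 6 2i libraries the lowest was 5.04%, the median 6.60% and the highest 7.07%. Every serum library lay above every 2i library. The means of 10.8% ± 0.571 (SD, n = 5) and 6.28% ± 0.799 (n = 6) gave a ratio of 1.72 and a difference of 4.55 percentage points (exact p = 0.00433, adjusted p = 0.0273). In late-S/G2 haploid 17 to 20 had 8.64, 8.21, 8.08 and 9.04%, against a lowest of 4.34%, a median of 5.39% and a highest of 5.93% in 2i. The groups were again apart, at 8.49% ± 0.438 (n = 4) and 5.16% ± 0.617 (n = 7), with a difference of 3.33 points (exact p = 0.00606, adjusted p = 0.0273). In G1 the 4 serum libraries had 8.49, 7.54, 8.76 and 8.14% and the 3 2i libraries haploid 3, 7 and 8 had 4.65, 4.56 and 7.04%. They did not overlap, with a difference of 2.82 points at the smallest p that these numbers of libraries allow (exact p = 0.0571, adjusted p = 0.122).

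Depth moved with this share between conditions, so cells of 50000 to 100000 contacts were compared alone, a window chosen after the data were seen. In early-S it left 3 serum and 5 2i libraries with mean depths of 73796 and 67840 contacts, and the share between chromosomes was 10.8 against 6.24%, without overlap (exact p = 0.0357, the smallest possible here, and adjusted p = 0.357). The share of fragment ends that the authors counted as lacking digestion, 26.3% in serum and 32.1% in 2i over all early-S cells, was 32.2 and 31.3% in that window. Against haploid 1, 2 and 3 alone, whose passing shares were high, the 5 serum libraries had 10.8 against 6.67%, and against haploid 6, 7 and 8 alone 10.8 against 5.89%. The difference in early-S was thus 4.16 or 4.94 points with either set of 2i libraries, each without overlap. In late-S/G2 it was 2.27 points between 50000 and 100000 contacts (2 against 5 libraries, without overlap) and 3.33 points over all cells. In cells of middle depth (contacts between their 25th and 75th percentiles) it was 4.16 points in early-S and 2.13 in late-S/G2. In G1 it was 1.11 points there, with 1 2i library, and 2.82 points over all cells. Across the cells of a library, the share went up with contacts in the 4 serum libraries of G1 (Spearman correlation 0.27 to 0.37). In early-S the correlation was 0.16 to 0.39 in 4 serum libraries and -0.03 to 0.10 in 3 2i libraries. In late-S/G2 it ran from -0.12 to 0.63 in 4 serum libraries and from -0.21 to 0.18 in 5 2i libraries. Only libraries with at least 20 cells of the phase were used.

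Compartment contrast was higher in serum cells as well. The authors' cis score, which grades the separation of A from B chromatin within chromosomes on a scale the sources used here do not define, was 0.394, 0.413, 0.394, 0.408 and 0.408 in early-S cells of haploid 15, 17, 18, 19 and 20. The 2i libraries ran from 0.338 over a median of 0.354 to 0.366. All serum libraries exceeded all 2i libraries, and the means were 0.403 ± 0.00865 (SD, n = 5) and 0.352 ± 0.0123 (n = 6), a difference of 0.0511 (exact p = 0.00433, adjusted p = 0.0273). In G1 the 4 serum libraries lay within 0.312 to 0.314 and the 2i libraries haploid 3, 7 and 8 at 0.245, 0.291 and 0.274, apart but with no p under 0.0571 possible. In late-S/G2 the difference of 0.0404 did not pass (0.437 ± 0.0220 against 0.397 ± 0.0158, exact p = 0.0182, adjusted p = 0.0682), and haploid 3, at 0.426, lay above the lowest serum library, haploid 18 at 0.417. Between 50000 and 100000 contacts, the early-S means were 0.421 and 0.351.

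The trans score grades the same separation in contacts between chromosomes. In late-S/G2 haploid 17 to 20 had 0.305, 0.290, 0.285 and 0.289, against 2i values from 0.234 over a median of 0.267 to 0.280. These groups were apart by a narrow gap, with means of 0.292 ± 0.00855 (SD, n = 4) and 0.263 ± 0.0196 (n = 7) and a difference of 0.0292 (exact p = 0.00606, adjusted p = 0.0273). The call ended when library medians over cells replaced means (difference 0.0215, exact adjusted p = 0.125) and when cells were weighted to the same makeup of the short-range share (0.0304, exact adjusted p = 0.0566). In early-S the means were 0.251 ± 0.0140 and 0.211 ± 0.0307, with overlap, and the difference of 0.0395 missed the threshold (exact p = 0.013, adjusted p = 0.0531). In G1 the values were 0.171, 0.172, 0.184 and 0.18 in serum and 0.159, 0.146 and 0.103 in 2i, apart at the smallest p possible. Both scores were higher in serum when averaged over the 3 phases, by 0.0448 for cis and 0.0365 for trans (exact adjusted p = 0.00947 and 0.0227, 5 against 7 libraries); the trans call was lost without haploid 17 (0.0355, exact adjusted p = 0.0545).

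**Figure D3:**
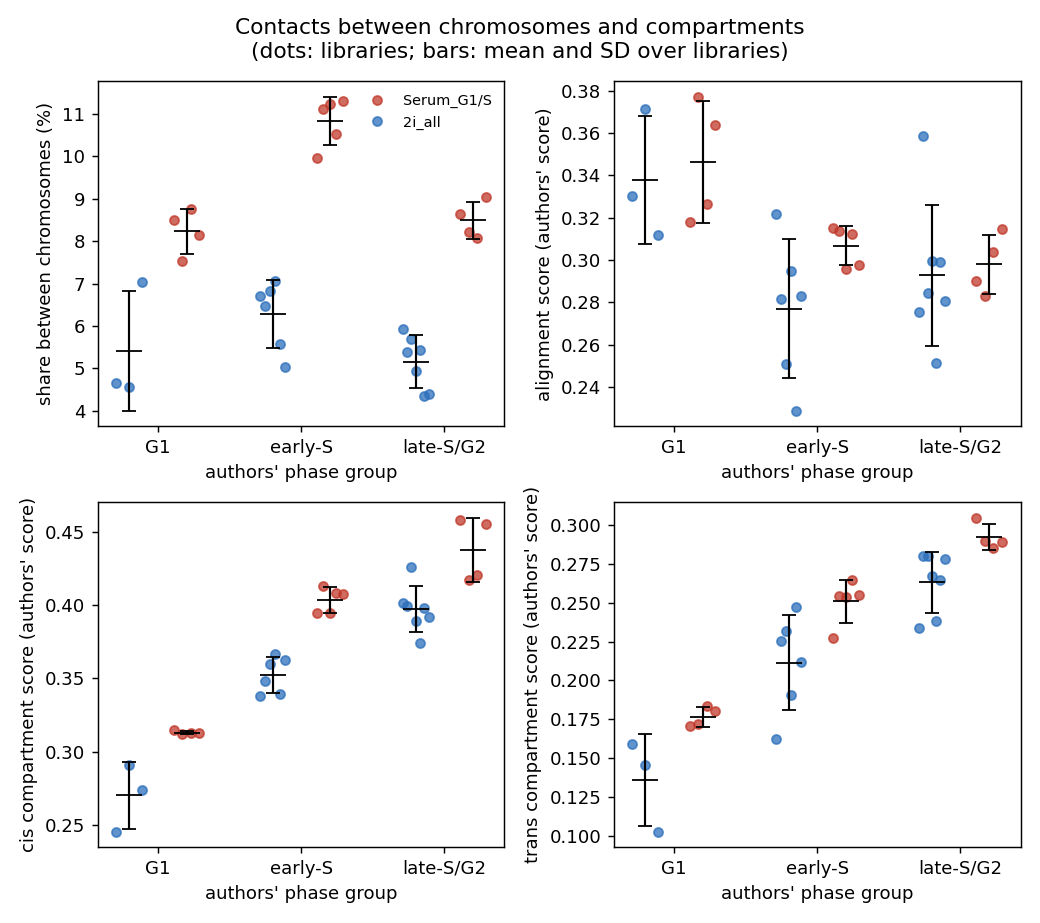
The 4 panels plot, for each phase, the library means (dots) and their mean and SD over libraries (bars) of the share of contacts between chromosomes (%), the alignment score and the cis and trans compartment scores (the authors' scores, without units). In early-S the share between chromosomes runs from 9.97 to 11.3% in serum and from 5.04 to 7.07% in 2i, whereas the alignment scores of the conditions overlap in every phase.

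Replication scores were alike in G1, apart in early-S and alike again in late-S/G2. The authors' score rises with the coverage of early-replicating DNA. In G1 it was 1.09, 1.09, 1.11 and 1.09 in haploid 17 to 20 and 1.08, 1.08 and 1.11 in haploid 3, 7 and 8, with a difference of 0.00204 (exact p = 0.686). In early-S haploid 15, 17, 18, 19 and 20 had 1.27, 1.23, 1.24, 1.28 and 1.24, while the 2i libraries ran from 1.11 over a median of 1.15 to 1.2. The lowest serum library lay above the highest 2i library, with means of 1.25 ± 0.0207 (SD, n = 5) and 1.15 ± 0.0384 (n = 6) and a difference of 0.101 (exact p = 0.00433, adjusted p = 0.0273). In late-S/G2 the means were 1.24 ± 0.0248 (n = 4) and 1.25 ± 0.0240 (n = 7), with full overlap and a difference of -0.0071 (exact p = 0.667). The average over phases, 0.0318, passed narrowly (exact adjusted p = 0.0433) and was lost without any 1 of haploid 1, 2, 3, 7, 8, 15, 17, 18, 19 or 20, at 0.0284 to 0.0353 (exact adjusted p = 0.0519 to 0.104).

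By the authors' ranking of all haploid cells along the cycle, early-S cells of most serum libraries stood later than those of 2i. The median rank of early-S cells was 579, 667.5, 642, 742 and 681.5 in haploid 15, 17, 18, 19 and 20 and between 444 and 595 in the 2i libraries. Only haploid 15, with 5 early-S cells, fell within the range of 2i. In late-S/G2 the order was turned, at 978 to 1055.5 in serum and 1047 to 1098 in 2i. The rank may use the replication score, so it is given without a test. When the cells of each phase were weighted to the same makeup in 4 bins of the short-range share, the early-S difference in replication score was 0.106 (exact p = 0.00433, adjusted p = 0.0364). Between 50000 and 100000 contacts the early-S means were 1.24 in serum and 1.14 in 2i, without overlap.

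Insulation, the authors' mean score for how strongly domain borders separate their flanks, was lower in early-S serum cells. Haploid 15, 17, 18, 19 and 20 had 2.34, 2.34, 2.35, 2.34 and 2.32, and the 2i libraries ran from 2.39 over a median of 2.43 to 2.51. No serum library reached the lowest 2i library, and the means were 2.34 ± 0.0112 (SD, n = 5) and 2.44 ± 0.0418 (n = 6), a difference of -0.0979 (exact p = 0.00433, adjusted p = 0.0273). The difference was smaller at restricted depth. Between 50000 and 100000 contacts the means were 2.38 and 2.42, with overlap (3 against 5 libraries). The difference there was -0.0358 (exact p = 0.25, adjusted p = 0.536). In cells of middle depth it was -0.0586 without overlap (4 against 5 libraries, exact p = 0.0159, the smallest possible, adjusted p = 0.0794). Those cells still had 137970 contacts on average in serum and 80273 in 2i. At all depths, the difference was -0.067 against haploid 1, 2 and 3 alone and -0.129 against haploid 6, 7 and 8 alone. In G1 the serum mean was the higher one, 2.43 ± 0.0235 (n = 4) against 2.38 ± 0.0270 (n = 3), with overlap (exact p = 0.114, adjusted p = 0.198). In late-S/G2 the 2 conditions had the same mean to 3 digits, 2.18 ± 0.0174 and 2.18 ± 0.0297, with a difference of 0.00225 (exact p = 0.873).

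The short-range share and the mitotic-band share are the parts of a cell's contacts at short distances and at the longer distances typical of mitotic chromosomes; the limits of the bands are not given in the sources used here. They follow the authors' phase groups closely, so they are not independent of the grouping and show how like the cells of a phase were. In early-S the short-range share was 69.2% ± 0.904 in serum and 70.2% ± 1.17 in 2i, with overlap (exact adjusted p = 0.238), and in G1 53.4% ± 0.798 and 54.4% ± 1.50. In late-S/G2 haploid 17 to 20 had 79.5, 79.6, 80.8 and 80.2%, all below the 2i libraries, which ran from 82.3 over a median of 82.6 to 83.6%. The difference of -2.68 points passed (exact p = 0.00606, adjusted p = 0.0273).

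The mitotic-band share went the other way in late-S/G2, at 8.82, 9.01, 8.32 and 8.65% in haploid 17 to 20 against 7.27 to 8.08% with a median of 7.90% in 2i, again without overlap. Its difference of 0.852 points passed (exact p = 0.00606, adjusted p = 0.0273), and it was 0.0738 points (exact adjusted p = 0.795) once cells were weighted to the same makeup of the short-range share. In G1 the mean was 16.5% ± 0.599 in serum and 17.5% ± 0.463 in 2i, and in early-S 12.2% ± 0.276 and 11.7% ± 0.469, neither past the threshold (exact adjusted p = 0.198 and 0.124). The call also ended with library medians over cells (0.893 points, exact adjusted p = 0.0779). With the same weighting, the late-S/G2 difference in the share between chromosomes was 2.35 points (exact p = 0.00606, adjusted p = 0.0424).

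**Figure D4:**
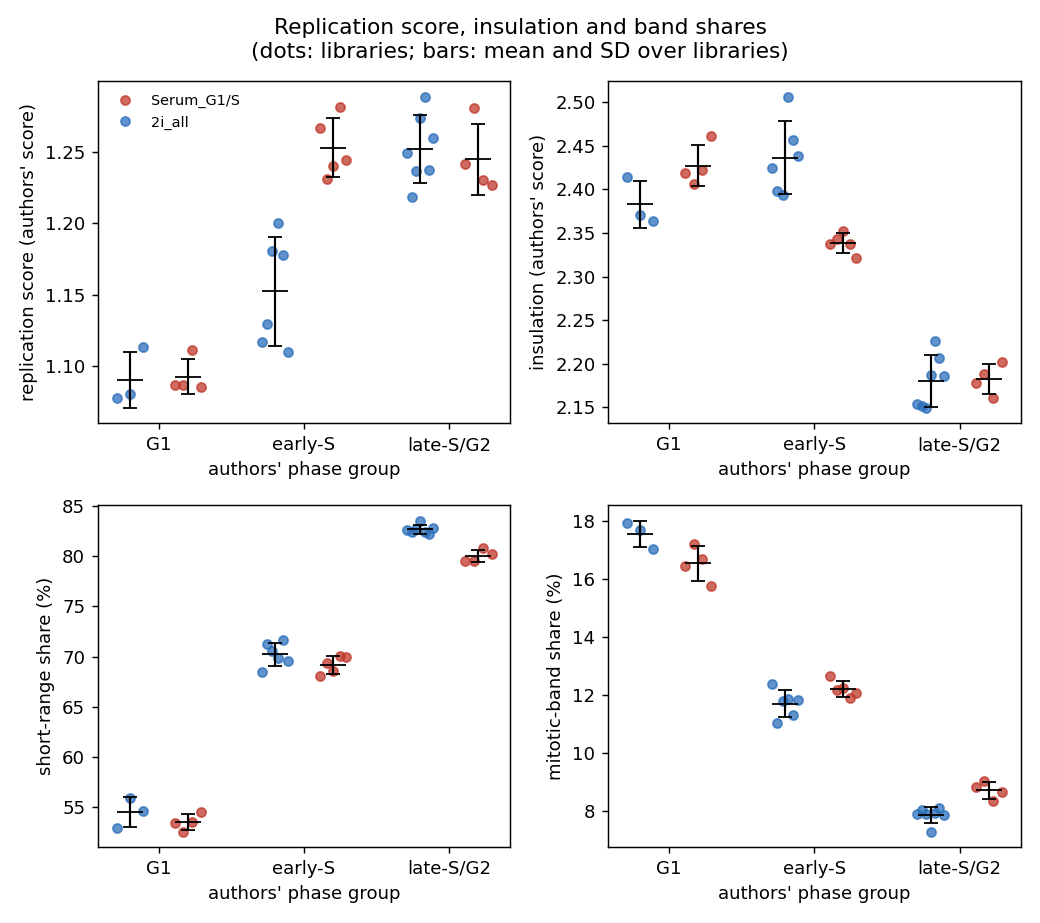
The 4 panels plot, for each phase, library means (dots) with their mean and SD over libraries (bars) of the replication score, insulation (the authors' scores, without units), the short-range share (%) and the mitotic-band share (%). Serum and 2i libraries are apart in early-S for the replication score (1.23 to 1.28 against 1.11 to 1.2) and insulation (2.32 to 2.35 against 2.39 to 2.51), and in late-S/G2 for both shares.

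Placing cells by their short-range share instead of the phase names showed the same features over the course of interphase, as a description with no test. Bins were 5 percentage points wide, and a library counted in a bin with at least 5 of its cells. At a short-range share of 65 to 70% the replication score was 1.25 ± 0.0148 (SD, n = 4 libraries) in serum and 1.14 ± 0.0503 (n = 4) in 2i, and at 70 to 75% it was 1.29 ± 0.0235 and 1.18 ± 0.0433. The serum score was highest between 75 and 80% (1.29 ± 0.0250). The 2i score was highest between 80 and 85% (1.27 ± 0.0302), where serum had come down to 1.22. In 2i it was 1.26 ± 0.0133 at 75 to 80%. In each condition the highest bin exceeded the bin before it by less than its SD, so the place of the peaks is not settled. Insulation was 2.46 in serum and 2.38 in 2i at 60 to 65%, and 2.29 against 2.48 at 70 to 75%. The fall in insulation thus began at a lower short-range share in serum cells, and by 80 to 85% both stood near 2.17 (2.16 and 2.17).

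The share between chromosomes had a different course. It rose in serum from 7.96% at 45 to 50% to 11.7% ± 0.460 at 65 to 70% and was 7.18% ± 0.478 at 80 to 85%. In 2i it lay between 5.83 and 6.39% in each bin from 55 to 80% and was 5.07% ± 0.844 at 80 to 85%. The low end rests on few 2i libraries. At 50 to 55% the share was 4.05% in 1 library with 5 cells, and at 55 to 60% 2 libraries had 3.57 and 8.85%. The libraries of the conditions did not overlap in any bin from 60 to 85%. The cis compartment score was 0.400 in serum and 0.325 in 2i at 65 to 70%, and 0.438 and 0.409 at 80 to 85%.

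**Figure D5:**
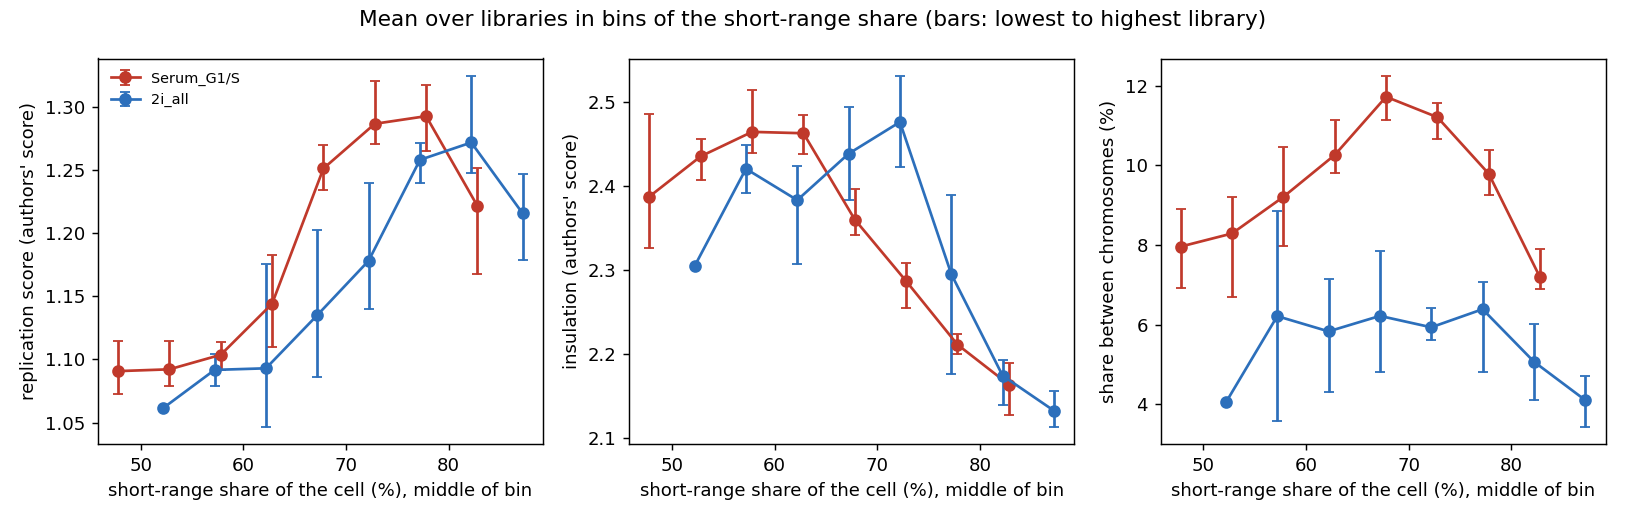
The 3 panels plot the replication score, insulation (the authors' scores, without units) and the share of contacts between chromosomes (%) against the short-range share of the cell (%), as the mean over libraries in bins of 5 percentage points, with bars from the lowest to the highest library. The replication score is highest at 75 to 80% in serum (1.29) and at 80 to 85% in 2i (1.27), each close to the bin before it. The share between chromosomes peaks at 11.7% in serum.

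Change from phase to phase within a library was compared next, since it does not depend on a level shared by all cells of a library. Of 30 such comparisons (15 features over 2 steps) 0 passed the adjusted threshold (0%), and 6 had an unadjusted exact p under 0.05 (20%). From early-S to late-S/G2 insulation fell in 4 of 4 serum and 6 of 6 2i libraries, by 0.156 ± 0.0256 (SD) and 0.257 ± 0.0147 on average, without overlap. The replication score changed by -0.00454 ± 0.0393 in serum, higher in 2 of 4 libraries, and by 0.0960 ± 0.0382 in 2i, higher in 6 of 6. The share between chromosomes went down by 2.56 ± 0.334 points in serum and 1.09 ± 0.356 points in 2i, in every library. Each of these 3 differences stood at the smallest p for 4 against 6 libraries (exact p = 0.00952, adjusted p = 0.0714).

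From G1 to early-S, 4 serum libraries could be set against 3 2i libraries. Insulation went down in 4 of 4 serum libraries (mean change -0.0883 ± 0.0363, SD) and up in 2 of 3 2i libraries (0.0468 ± 0.0582). The replication score went up by 0.157 ± 0.0108 in serum and by 0.0654 ± 0.0598 in 2i, where haploid 8 changed by -0.00359. Contacts per cell went up by 46685 ± 17893 in serum and changed by -2817 ± 7672 in 2i. These libraries did not overlap, but no p under 0.0571 was possible (exact adjusted p = 0.156). With libraries of any cell number counted, 8 of the 30 comparisons passed, among them insulation and the replication score at both steps.

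Several features of folding did not separate the conditions past the threshold in any phase. The mean distance of far contacts, in Mb, was 26.3 ± 1.33 (SD) in serum and 25.3 ± 1.41 in 2i in G1, 27.5 ± 0.479 and 28.1 ± 0.996 in early-S, and 26.4 ± 0.414 and 26.1 ± 0.868 in late-S/G2. The authors' alignment score, which grades how chromosomes line up with each other by position along their arms, differed by 0.00855, 0.0300 and 0.0052 in the 3 phases (exact adjusted p = 0.799, 0.127 and 0.799). It was 0.346 ± 0.0287 and 0.338 ± 0.0304 in G1, the phase that follows mitosis, when chromosomes still keep part of that arrangement.

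Loop enrichment, on a log2 scale, was given for loops between early-replicating (EE) and between late-replicating (LL) anchors, as the column names are read. EE loops had lower means in serum in all 3 phases, by -0.11, -0.06 and -0.12, with overlap (exact adjusted p = 0.571, 0.669 and 0.249). LL loops differed by -0.32 in G1 and by -0.33 in early-S (1.10 ± 0.07 against 1.43 ± 0.28, exact p = 0.0519, adjusted p = 0.122) and by -0.02 in late-S/G2. Averaged over phases the LL difference of -0.22 had an exact p of 0.048 (adjusted p = 0.09), so it did not pass. For both loop measures the SD between libraries was larger in 2i than in serum in each phase. The 2i libraries also had fewer contacts per cell in each phase, and in G1 5 to 17 cells against 28 to 42 in serum. The part of this sampling in the larger SD was not tested. Between 50000 and 100000 contacts the early-S LL difference was 0.006 (1.30 ± 0.04 in 3 serum libraries against 1.29 ± 0.43 in 5 2i libraries). The EE difference there was 0.10 in early-S, and in late-S/G2 both were -0.06. Within the 4 serum libraries with at least 20 early-S cells, LL enrichment fell with contacts (Spearman correlation -0.45 to -0.29). In 3 such 2i libraries the correlation ran from -0.49 to 0.18.

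The measures of library quality moved with the conditions too. Contacts per cell in early-S were 186737, 150129, 152146, 141418 and 216421 in haploid 15, 17, 18, 19 and 20, and 25478 to 72578 with a median of 59330 in 2i. Serum cells thus had 3.08 times as many contacts in early-S (exact adjusted p = 0.0273), 2.50 times in late-S/G2 (0.0273 by the same test) and 2.07 times in G1 (0.122). The late-S/G2 call was lost when cells were weighted to the same makeup of the short-range share (101073 more contacts, exact adjusted p = 0.0566). The share without digestion differed by -7.71, -5.78 and -6.80 points in G1, early-S and late-S/G2, which did not pass within a phase (exact adjusted p = 0.122, 0.122 and 0.105) but did on average (difference -6.76, exact adjusted p = 0.0433). The averaged call was lost without any 1 of haploid 1, 2, 4, 6, 8, 17, 18, 19 or 20, at -7.38 to -5.81 points (exact adjusted p = 0.0557 to 0.0928). It was also lost with libraries of any cell number counted (-4.93 points, exact adjusted p = 0.11), where the G1 difference was -1.85 points (exact p = 0.652). The average was -1.71 points without haploid 6, 7 and 8. Between 50000 and 100000 contacts it was -0.0653 points, but no G1 comparison was possible there. That value averages differences of opposite sign, 0.891 points in early-S and -1.02 points in late-S/G2. The share without digestion was 34.7 to 38.9% in early-S cells of haploid 6, 7 and 8 and 27 to 28.2% in those of haploid 1, 2 and 3. Against haploid 1, 2 and 3 alone the early-S difference was -1.23 points. The duplicated share of fragment ends did not pass in any phase (1.65% ± 0.254 against 1.33% ± 0.664 in early-S, exact adjusted p = 0.419). The part of depth and digestion in the folding differences was not tested beyond the restricted depth and the library subsets given above.

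Coverage deviation, the authors' score for the chromosome whose coverage departs most from its due share, stood apart in G1. It was 0.505, 0.53, 0.470 and 0.560 in haploid 17 to 20 and 0.311, 0.361 and 0.288 in haploid 3, 7 and 8, without overlap (difference 0.195, exact p = 0.0571, adjusted p = 0.122). Pooled over libraries, 77 of 147 G1 serum cells (52.4%) and 4 of 38 G1 2i cells (10.5%) had a value of 0.5 or more. The same count was 138 of 313 (44.1%) against 24 of 121 (19.8%) in early-S and 24 of 109 (22%) against 51 of 224 (22.8%) in late-S/G2. Among the libraries with at least 5 G1 cells, the share of such cells was 47.6 to 60.7% in serum and 0 to 11.8% in 2i. With libraries of any cell number counted, the G1 difference was 0.133 and the groups overlapped (6 against 6 libraries, exact p = 0.106, adjusted p = 0.177). In early-S it was 39.1 to 55.6% in serum and 0 to 69.2% in 2i, where haploid 1 (69.2%) and haploid 3 (41.7%) reached the serum level. The score fell from early-S to late-S/G2 in 4 of 4 serum libraries by 0.142 ± 0.0861 (SD). In 2i it went up in 4 of 6 libraries and down in the others, with a mean change of 0.0325 ± 0.0793. The difference between conditions, -0.174, did not pass (exact p = 0.00952, adjusted p = 0.0714).

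Cells under 0.5 were compared alone, a restriction chosen after the data were seen. In early-S, 4 serum and 5 2i libraries then differed by 5.09 points in the share between chromosomes, by 0.0636 in the cis compartment score, by 0.0818 in the replication score and by -0.0835 in insulation. None of these 4 overlapped (exact p = 0.0159 and adjusted p = 0.0606 for each, the smallest possible here).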

How the data were processed

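Single-cell Hi-C values of haploid ES cells were taken from a deposited table of cells by features. Members and features were chosen with earlier results of these data known. Per the file headers, the table holds the count of contacts per cell, each share as a fraction of contacts or fragment ends (printed here as percent), loop enrichments read as log2 from the values, and scores whose scale the authors did not define; the phase group, condition and quality flag are the authors' too. The submitters' processing notes name Bowtie2 and mm9; other steps are not given in the sources used here. Batch numbers were matched to sample titles through the deposited cell list. Library means over cells were compared between conditions by exact permutation of library labels with Benjamini-Hochberg adjustment (Python 3.11.15, scipy 1.17.1), within each phase, averaged over phases and as changes between phases. The 15 features were chosen from the deposited columns, and no cell was filtered beyond the flag and a minimum of 5 cells. All 15 chosen features are reported, with library values for those past the threshold in a phase. On simulated data for 5 against 6 libraries of 20 cells (400 features), differences of 3 library SDs were called in 87.5% of 200 changed features and in 2% of the others. That run adjusted over its own 400 features and gave every library the same number of cells. Its shares are therefore a check of the code and not the power of the tests above. Alternatives covered the cell minimum, medians, depth, matching on the short-range share and leaving out libraries.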

Additional observations from a re-analysis of the deposited data

Results flagged for a closer look

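Among 75 groups of 4 to 10 libraries, 4 library values lay far from the rest of their group by Dixon's test, which chance does in about 1 group of 20. The mitotic-band share of late-S/G2 cells in the 2i library haploid 4 was 7.27%, and the other 2i libraries lay between 7.86 and 8.08%. Haploid 4 held 5 cells of that phase. The early-S trans compartment score of the serum library haploid 15 was 0.227, below the 0.254 to 0.265 of the other serum libraries and within the range of 2i. The early-S share without digestion of the same library was 29.8%, above the 24.7 to 25.9% of the others. Haploid 15 held 5 early-S cells. The G1 replication score of the serum library haploid 19 was 1.11, and the other serum libraries stood at 1.09.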

How the results depend on the processing

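No paired analysis was possible because the libraries of the conditions share no replicate number. All called differences kept their direction under every setting run. The averaged share without digestion did so by only -0.0653 points between 50000 and 100000 contacts, where early-S and late-S/G2 had opposite signs. The G1 cis compartment score, which was not called, was reversed in cells of middle depth (contacts between their 25th and 75th percentiles, -0.0257, 4 serum libraries against 1). Leaving out each library in turn gave 0 to 7 calls in early-S, 0 to 6 in late-S/G2, 4 to 7 averaged over phases (4 without haploid 17) and 0 in G1 and for phase changes. The counts in early-S and late-S/G2 were 0 and 0 with a minimum of 20 cells, in cells of middle depth, between 50000 and 100000 contacts, under a coverage deviation of 0.5, without haploid 6, 7 and 8, and without haploid 1, 2, 3 and 4. In these settings fewer libraries were left, so fewer p-values were possible. The averaged count was 11 with a minimum of 20 cells. No 2i library held that many G1 cells (at most 17), so this average covered early-S and late-S/G2 alone, while permuted labels could still draw on G1. The count of 11 is therefore not comparable with the count over 3 phases. It was 0 between 50000 and 100000 contacts, where G1 was also missing, and 0 without either set of 2i libraries. A minimum of 1 cell gave 4 calls in G1 and 8 for phase changes, and matching on the short-range share gave 1 in late-S/G2. A coverage deviation limit of 1 left out 0 cells. The number of libraries, from 3 to 7 a group, limits every test, and the G1 comparison could not pass.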
